A study of Mus musculus with 8 samples.

Results

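Wnt ligands are secreted, lipid-modified signalling proteins, and 10 of their genes were followed here in cultured mouse molar tooth germs: Wnt3, Wnt4, Wnt6, Wnt7b, Wnt10a and Wnt10b, known from the epithelium of the germ, and Wnt5a, Wnt5b, Wnt9a and Wnt11. Wnt5a is known from the mesenchyme, and the layer of Wnt5b, Wnt9a and Wnt11 is less sure. The genes were taken by name from a count table of 35896 genes, which holds 19 Wnt genes in all. All 10 had counts and all 10 passed the filter on low counts that left 19022 genes to test. Wnt5a was the most abundant of the 10 in every library. Of the 10 genes, 0 passed the test with SB431542, 0 with SIS3 and 1 at E13.5, where 0%, 3.82% and 5.23% of all genes tested did. The 1 gene was Wnt6, which had 0 counts in E13.5 germs, against 75 counts in E12.5 germs, and its call was lost with DESeq2, without either E13.5 column and among named protein-coding genes alone.

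Tooth germs are the buds from which the molars form in the embryo. They came from BRE-GFP embryos, which carry a fluorescent reporter of BMP-Smad signalling in every group, and were cultured in vitro for 1 day. The groups were E12.5 germs in SB431542, which blocks type I receptors for TGF-beta and activin, E12.5 germs in SIS3, an inhibitor of Smad3, E13.5 germs in DMSO as the control for stage, and E12.5 germs in DMSO, the solvent. The sources used here do not give the doses, the number of germs or embryos in a library or the strain beyond the reporter. Total RNA was taken from whole germs, so epithelium and mesenchyme were measured together. The TruSeq RNA kit v2 was used for the pair of SIS3 libraries and the SMARTer Universal Low Input kit for all others, so SIS3 and the kit cannot be told apart in any SIS3 value below.

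Each group has 2 deposited columns, but in 3 groups the 2 columns differed by about the sampling noise of dividing 1 set of reads over genes with 1 transcript, and by more over others, and they were summed and counted as 1 library. This left 1 SB431542 library (28161788 counts), 2 SIS3 libraries (5995709 and 9427262 counts), 1 E13.5 DMSO library (17519118 counts) and 1 E12.5 DMSO library (30975010 counts). Levels are given as CPM, each count being scaled by its library's total. A count of 0 allows up to 3 counts, which was 0.0969 to 0.5 CPM. All spread between replicates comes from the SIS3 pair, so comparing 2 single libraries involves no replicate of either. All 18 dental mesenchyme markers were detected in every library, at a summed 5972 to 16138 CPM. Of the dental epithelium markers, Fgf4 and Dkk4 were at 0 in 3 of the 5 libraries, while 21 or 22 of the 22 general epithelium markers were detected in every library.

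Wnt proteins bind Frizzled receptors. With the co-receptors Lrp5 and Lrp6 they stabilise beta-catenin, which then acts on genes through TCF and LEF factors, while ligands such as Wnt5a act largely through Ror2 and without beta-catenin. In tooth development Wnt signalling from the epithelium takes part in the formation of the placode, the bud and the enamel knot, the signalling centre of the epithelium. The mesenchyme under it answers through beta-catenin and also produces Wnt ligands of its own.

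Wnt5a (ENSMUSG00000021994; GRCm38 chromosome 14, 28504750 to 28527448, plus strand), the main ligand of the dental mesenchyme, had 181 CPM in the SB431542 library, 168 and 226 CPM in the SIS3 libraries, 135 CPM in the E13.5 DMSO library and 193 CPM in the E12.5 DMSO library. It was the highest of the 10 genes in each of the 5 libraries. Levels of different genes were compared per length, as CPM per kb of merged exons. On that scale Wnt5a stood at 24.6 in E12.5 DMSO, and the next gene, Wnt9a, at 6.30 (95% counting interval 5.83 to 6.81). Wnt11 (5.26), Wnt4 (5.13) and Wnt5b (4.78) followed with intervals that overlapped one another. Wnt6 (1.10), Wnt10b (1.03), Wnt7b (0.883) and Wnt10a (0.863) formed a lower group, again with overlapping intervals, and Wnt3 was lowest at 0.105. With the mean length of coding transcripts in place of merged exons, Wnt5a stayed first and Wnt3 last, but Wnt11 was second at 11.1 CPM per kb and Wnt6 ninth. These intervals cover counting error only. Some sequence of 4 of the genes also occurs in other genes, which can move estimated counts: 8.02% of the 31-base stretches of Wnt11, 6.62% of Wnt4, 4.82% of Wnt7b and 4.18% of Wnt5a were not theirs alone, against 0% in the other 6.

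Among the epithelial ligands Wnt4 (ENSMUSG00000036856; chromosome 4, 137277489 to 137299726, plus strand) was the most abundant. It had 21.2 CPM in SB431542, 18.3 and 24.4 CPM in the SIS3 libraries, 36.0 CPM in E13.5 DMSO and 21.5 CPM in E12.5 DMSO. Its E12.5 levels thus lay close together, with the E13.5 library above them. Wnt7b (ENSMUSG00000022382; chromosome 15, 85535437 to 85582473, minus strand), known from the oral epithelium beside the tooth-forming region, had 2.49 CPM in SB431542, 1.83 and 9.02 CPM in the SIS3 libraries, 7.82 CPM in E13.5 DMSO and 4.33 CPM in E12.5 DMSO. The SIS3 libraries lay on either side of E12.5 DMSO.

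Wnt10b (ENSMUSG00000022996; chromosome 15, 98770712 to 98778150, minus strand), a marker of the early dental placode, had 2.63 CPM in SB431542, 0.834 and 1.38 CPM in the SIS3 libraries, 5.31 CPM in E13.5 DMSO and 3.52 CPM in E12.5 DMSO. Both SIS3 libraries were below all others. Wnt10a (ENSMUSG00000026167; chromosome 1, 74791516 to 74804179, plus strand), expressed in the placode and the enamel knot and a gene in which loss of function leads to missing teeth in humans, had 1.35 CPM in SB431542, 1.00 and 1.38 CPM in the SIS3 libraries, 1.54 CPM in E13.5 DMSO and 2.13 CPM in E12.5 DMSO. E12.5 DMSO was the highest of the 5, on 66 counts.

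Wnt6 (ENSMUSG00000033227; chromosome 1, 74771892 to 74785322, plus strand), a ligand of oral and dental epithelium, had 0.888 CPM in SB431542 (25 counts), 3.17 and 8.06 CPM in the SIS3 libraries (19 and 76 counts), 0 counts in E13.5 DMSO and 2.42 CPM in E12.5 DMSO (75 counts). It is the immediate neighbour of Wnt10a, with 6193 bp between the genes on the same strand, and Wnt10a had 27 counts at E13.5. Wnt3 (ENSMUSG00000000125; chromosome 11, 103774150 to 103817957, plus strand), an epithelial ligand of the beta-catenin pathway, had 0.178 CPM in SB431542 (5 counts), 1.17 and 3.29 CPM in the SIS3 libraries (7 and 31 counts), 0 counts in E13.5 DMSO and 0.323 CPM in E12.5 DMSO (10 counts). Wnt6 and Wnt3 were the 2 members with 0 counts in a library, in both cases the E13.5 library, and both were highest in the second SIS3 library.

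Of the ligands outside the epithelial group, Wnt9a (ENSMUSG00000000126; chromosome 11, 59306928 to 59333552, plus strand), known from joint-forming mesenchyme, had 11.9 CPM in SB431542, 28.4 and 18.8 CPM in the SIS3 libraries, 30.1 CPM in E13.5 DMSO and 21.0 CPM in E12.5 DMSO. Wnt11 (ENSMUSG00000015957; chromosome 7, 98835112 to 98855195, plus strand), a ligand that acts largely without beta-catenin, had 19.0 CPM in SB431542, 19.0 and 7.43 CPM in the SIS3 libraries, 11.8 CPM in E13.5 DMSO and 21.8 CPM in E12.5 DMSO. The SB431542 library was lowest for Wnt9a, and the second SIS3 library was lowest for Wnt11. The fourth of these genes, Wnt5b (ENSMUSG00000030170; chromosome 6, 119432531 to 119544347, minus strand), a close relative of Wnt5a, had 10.7 CPM in SB431542, 7.34 and 7.0 CPM in the SIS3 libraries, 12.3 CPM in E13.5 DMSO and 12.7 CPM in E12.5 DMSO.

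**Figure D1:**
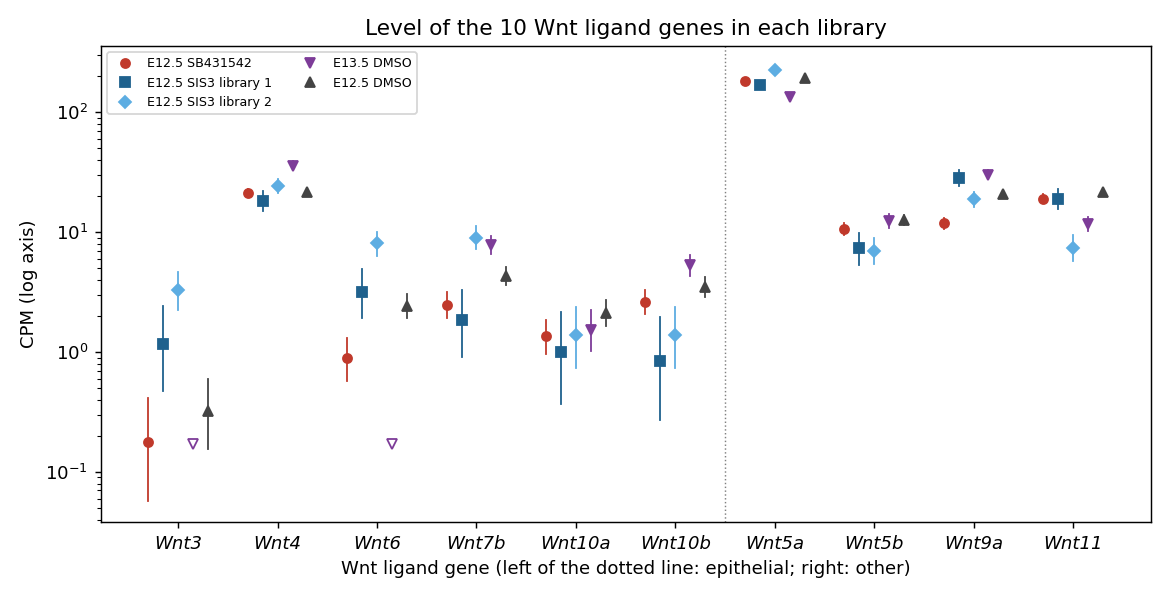
Level of each Wnt ligand gene in each of the 5 libraries, in CPM on a log axis, with 95% counting intervals as bars. Open symbols are genes with 0 counts, drawn at the limit of 3 counts. Wnt5a stands at 135 to 226 CPM in every library, and the open symbols are Wnt3 and Wnt6 in the E13.5 DMSO library.

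Promoters are shown for 3 genes: Wnt6 and Wnt3, the members with 0 counts in a library, and Wnt11, which holds a TCF/LEF match in its first listed promoter. Of the 10 genes 7 have an entry in the RefSeq promoter table (GRCm38.p6), and the 250 bases before the start were searched on both strands for CTTTGAT or CTTTGAA (TCF/LEF), CAGAC (a Smad binding element) and GGCGCC (a GC-rich Smad motif). The motifs do not overlap one another in these promoters. Matches are in capitals, and all 3 sequences are on the plus strand, at chr1:74771642-74771891 for Wnt6, chr11:103773925-103774174 for Wnt3 and chr7:98834862-98835111 for Wnt11.
Wnt6: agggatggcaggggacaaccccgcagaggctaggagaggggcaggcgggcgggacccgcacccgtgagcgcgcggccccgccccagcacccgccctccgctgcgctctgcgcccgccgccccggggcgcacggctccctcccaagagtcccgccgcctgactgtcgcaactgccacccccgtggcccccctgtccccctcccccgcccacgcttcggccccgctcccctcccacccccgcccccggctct
Wnt3: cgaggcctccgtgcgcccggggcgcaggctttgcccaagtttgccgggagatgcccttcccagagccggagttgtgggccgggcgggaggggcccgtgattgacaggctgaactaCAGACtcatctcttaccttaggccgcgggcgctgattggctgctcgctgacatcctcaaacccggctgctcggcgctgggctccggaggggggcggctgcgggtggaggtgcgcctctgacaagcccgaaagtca
Wnt11: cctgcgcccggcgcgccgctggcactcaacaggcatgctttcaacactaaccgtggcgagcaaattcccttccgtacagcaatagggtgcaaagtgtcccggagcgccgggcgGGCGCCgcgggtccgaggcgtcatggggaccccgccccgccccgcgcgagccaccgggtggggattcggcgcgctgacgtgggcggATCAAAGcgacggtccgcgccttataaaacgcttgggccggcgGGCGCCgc
The Wnt6 promoter, which is 79.6% G and C, held none of the 3 motifs. The Wnt3 promoter held 1 CAGAC match, starting 135 bases before the start. The Wnt11 promoter held 1 TCF/LEF match, in reverse as ATCAAAG, and 2 GGCGCC matches. In the first promoter listed for each of the 7 members with an entry, 1 held a TCF/LEF match, 2 a CAGAC match and 3 a GGCGCC match. Over all 10 promoters listed for them, 2 members held a TCF/LEF match, Wnt11 and Wnt5b, 3 a CAGAC match and 3 a GGCGCC match. Among all 32851 promoters of that length 7.48% held a TCF/LEF match, 42.2% a CAGAC match and 9.59% a GGCGCC match. These shares are per promoter, unlike the counts of members over all listed promoters. They were not matched for G and C, which made up 66.8% to 85.2% of the members' first listed promoters. A match is a description of these letters and not a bound site.

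The SB431542 comparison addresses what blocking the type I receptors for a day does to the ligands at E12.5. All 10 genes lay lower in the SB431542 library than in E12.5 DMSO, and none of these differences passed the test (an adjusted p under 0.05, with adjustment over all genes tested). The fitted log2 fold changes ran from -1.49 for Wnt6 (SE 1.02, 95% confidence interval -3.68 to 0.70, 1 library against 1) to -0.07 for Wnt4 (SE 0.46). For the abundant Wnt5a the value was -0.14, with an interval of -0.89 to 0.61. Wnt9a, the lowest of the more abundant ligands here, had -0.88 (SE 0.50, interval -1.96 to 0.21). Wnt3 (-0.89), Wnt7b (-0.85), Wnt10a (-0.71), Wnt10b (-0.47), Wnt5b (-0.30) and Wnt11 (-0.25) lay between, each with an interval that spans 0. The median was -0.59 over the 10 genes and 0.00 over all genes tested, of which 47.4% had a value below 0. edgeR's quasi-likelihood F test (Benjamini-Hochberg adjusted) gave an adjusted p of 1 for each of the 10. It called 0% of all genes in this comparison, where 1.24% of genes and 0 of the 10 ligands had an unadjusted p under 0.05, and DESeq2 called 4 genes, all lower and none of them a ligand.

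Epithelium markers were also low in the SB431542 library. The 22 epithelium markers summed to 105 CPM there, against 337 CPM in E12.5 DMSO, 21 of the 22 were below E12.5 DMSO with a median log2 ratio of -1.28, and none was at 0. The 15 dental epithelium markers differed less as a sum, at 65.5 CPM in SB431542, against 78.5 CPM in E12.5 DMSO. Gene by gene they were low as well, with 12 of the 15 below E12.5 DMSO and 3 above. Their median log2 ratio was -0.86, with Fgf20 at 0 counts set to the floor of 3. Cartilage markers summed to 650 CPM in SB431542, against 896 CPM in E12.5 DMSO, with 8 of 11 below E12.5 DMSO. Dental mesenchyme and macrophage marker sums were also below E12.5 DMSO, and those of endothelium, skeletal muscle and neural and Schwann markers above it. The 6 epithelial ligands had a median log2 ratio of -0.73, and the other 4 of -0.22. In RNA of whole germs, fewer cells of a type and less RNA per cell cannot be told apart. The part of the marker level in the ligand values was not tested. Per 100 CPM of epithelium markers the summed epithelial ligands stood at 27.4 CPM in SB431542, against 10.2 CPM in E12.5 DMSO, and without Wnt4, the largest part of the sum, at 7.16 CPM, against 3.77 CPM. With Wnt4 the same measure was 18.6 and 6.88 CPM in the SIS3 libraries and 10.2 CPM in E13.5 DMSO. It depends on the marker list, and it was not computed over the dental epithelium markers.

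In SIS3, on a different kit from E12.5 DMSO, 0 of the 10 ligands passed the test, where 3.03% of all genes were called lower and 0.794% higher, and the directions were mixed, with 6 of 10 below 0 against 49.8% of all genes and a median log2 fold change of -0.06. Wnt10b had -1.71 (SE 0.81, interval -3.45 to 0.03, 2 libraries against 1) and an adjusted p of 0.309 by edgeR's quasi-likelihood F test (Benjamini-Hochberg adjusted), the smallest of the 10. Wnt3 had 2.71 (SE 1.37, adjusted p 0.347 in the same edgeR fit) and Wnt6 1.15 (SE 0.89, adjusted p 0.579 in that fit). Among the other ligands Wnt5b had -0.90 (SE 0.52), Wnt11 -0.80 (SE 0.57) and Wnt9a 0.09 (SE 0.44). Without the first SIS3 library Wnt11 stood at -1.64 and Wnt9a at -0.25, and without the second at -0.24 and 0.38, as values with no test. Wnt5a stood at -0.04 with an interval of -0.69 to 0.61, and Wnt4 at -0.08 with an interval of -0.95 to 0.79. Wnt10a (-0.90) and Wnt7b (0.27) had intervals that reached past 1 on both sides of 0. In either direction 3.82% of all genes were called, 16.8% had an unadjusted p under 0.05, and 0 of the 10 ligands did. DESeq2 also called 0 of the 10 and gave no adjusted p for Wnt3.

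Markers of some other cell types, but not of all, were low in the SIS3 libraries. Endothelium markers summed to 56.0 and 59.8 CPM in SIS3, against 459 CPM in E12.5 DMSO, and 11 of 12 were called lower by edgeR. Macrophage markers summed to 15.2 and 13.4 CPM in SIS3, against 72.0 CPM in E12.5 DMSO, with 5 of 10 called lower, and skeletal muscle markers to 287 and 234 CPM, against 800 CPM, with 4 of 10 called lower. The 18 dental mesenchyme markers summed to 7281 and 5972 CPM in SIS3, against 12594 CPM in E12.5 DMSO, with 3 called lower (Col1a1, Dlx2 and Col3a1). Their median log2 fold change was -0.34, with 13 of them below 0 and 5 above. C1qa was at 0 in one SIS3 library, and C1qb and C1qc in the other. Neural and Schwann markers summed to 47.2 and 53.5 CPM in SIS3, against 52.5 CPM in E12.5 DMSO. Dental epithelium markers summed to 97.6 and 117 CPM, against 78.5 CPM, and cartilage markers to 601 and 1418 CPM, against 896 CPM. The part of these cell types in the ligand values was not tested.

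**Figure D2:**
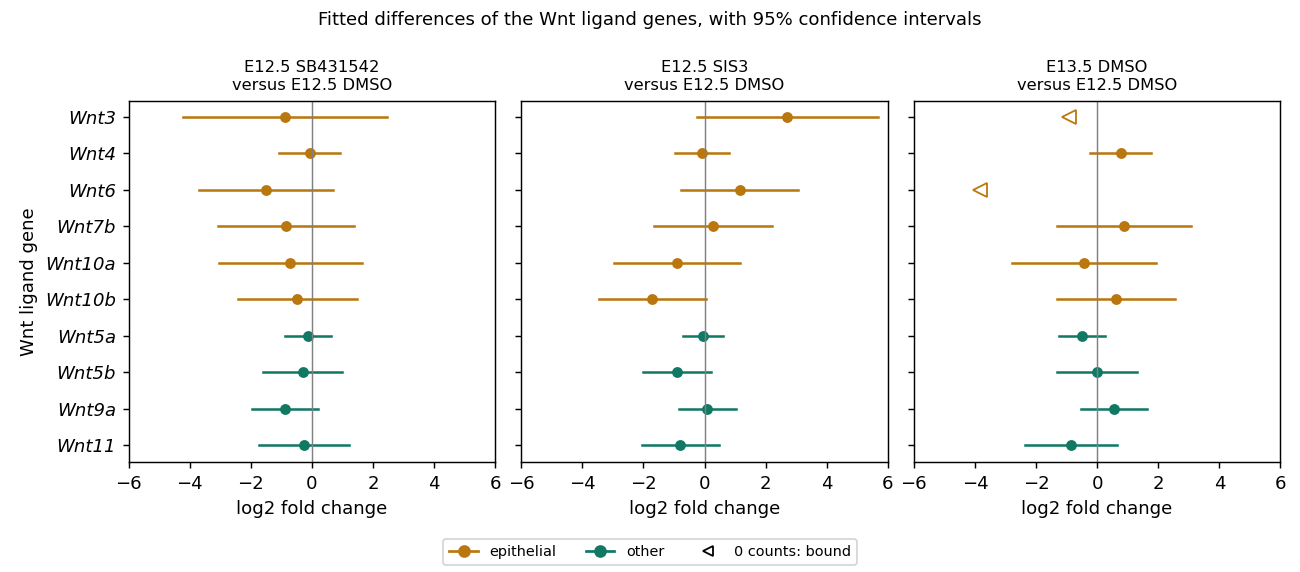
Fitted log2 fold change of each Wnt ligand gene in the 3 comparisons with E12.5 DMSO, with 95% confidence intervals as bars. The colours mark epithelial ligands and the other ligands. Open triangles mark genes with 0 counts at E13.5, drawn at the log2 ratio of CPM with E13.5 set at 3 counts. Every drawn interval spans 0, and the Wnt6 triangle at -3.82 is the call that passed the test.

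The 2 SIS3 libraries differed from each other, and this split the ligands. The epithelium markers summed to 691 CPM in the second and 141 CPM in the first, a ratio of 4.89, with Ovol1 at 0 in the first library. Wnt7b had a ratio of 4.91 of the second library over the first (95% counting interval 2.61 to 10.2), Wnt3 of 2.82 (1.22 to 7.58) and Wnt6 of 2.54 (1.52 to 4.46). These 3 epithelial ligands were thus higher in the library with more RNA of the 22 epithelium markers. The 15 dental epithelium markers differed less, at a summed 117 CPM in the second library and 97.6 CPM in the first. Wnt4 differed less, at 1.33 (1.06 to 1.68). Wnt10b at 1.65 (0.553 to 5.92) and Wnt10a at 1.38 (0.489 to 4.42) had intervals that include both 1 and 4. Among the other ligands Wnt5a had a ratio of 1.35 (1.25 to 1.46) and Wnt5b of 0.954 (0.642 to 1.43). Wnt9a at 0.662 (0.533 to 0.822) and Wnt11 at 0.391 (0.286 to 0.530) were lower in the second library. The dental mesenchyme markers had a ratio of 0.820, and the cartilage markers summed to 1418 CPM in the second library and 601 CPM in the first. The part of the cell types in these ratios was not tested.

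**Figure D3:**
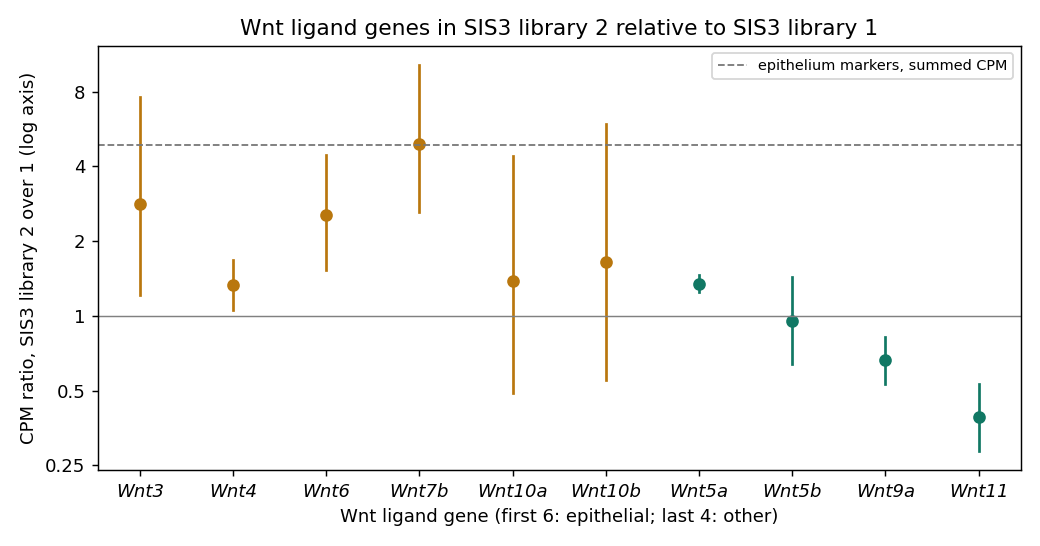
Ratio of CPM in the second SIS3 library over the first for each Wnt ligand gene, on a log axis, with 95% counting intervals as bars. The dashed line is the ratio of the summed epithelium markers, 4.89. Wnt7b lies on that line at 4.91, Wnt3 and Wnt6 lie between it and 1, and Wnt9a and Wnt11 lie below 1.

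The summed levels of the layers were then set side by side. The summed epithelial ligands were 28.8 CPM in SB431542, 26.4 and 47.5 CPM in the SIS3 libraries, 50.6 CPM in E13.5 DMSO and 34.3 CPM in E12.5 DMSO. Without Wnt4, the most abundant of them, the sums were 7.53 CPM in SB431542, 8.01 and 23.1 CPM in the SIS3 libraries, 14.7 CPM in E13.5 DMSO and 12.7 CPM in E12.5 DMSO. From low to high, the 5 libraries stood in the same order for the sums without Wnt4 as for the summed epithelium markers, but not for the sums with Wnt4. The 2 lowest sums without Wnt4 lay close together, on 212 counts in SB431542 and 48 counts in the first SIS3 library. No counting interval was computed for the sums. In the second SIS3 library, 4 of the 6 epithelial ligands were above E12.5 DMSO. The other 2, Wnt10a and Wnt10b, were below it, at log2 ratios of -0.63 and -1.35. The epithelium marker sums were 105 CPM in SB431542, 141 and 691 CPM in the SIS3 libraries, 495 CPM in E13.5 DMSO and 337 CPM in E12.5 DMSO. The 15 dental epithelium markers gave another order of the libraries. They summed to 65.5 CPM in SB431542, 97.6 and 117 CPM in the SIS3 libraries, 67.4 CPM in E13.5 DMSO and 78.5 CPM in E12.5 DMSO. The other 4 ligands, with Wnt5a as the largest part, summed to 223 CPM in SB431542, 222 and 259 CPM in the SIS3 libraries, 189 CPM in E13.5 DMSO and 248 CPM in E12.5 DMSO. With 5 libraries no correlation was computed, and no test was run over the members.

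**Figure D4:**
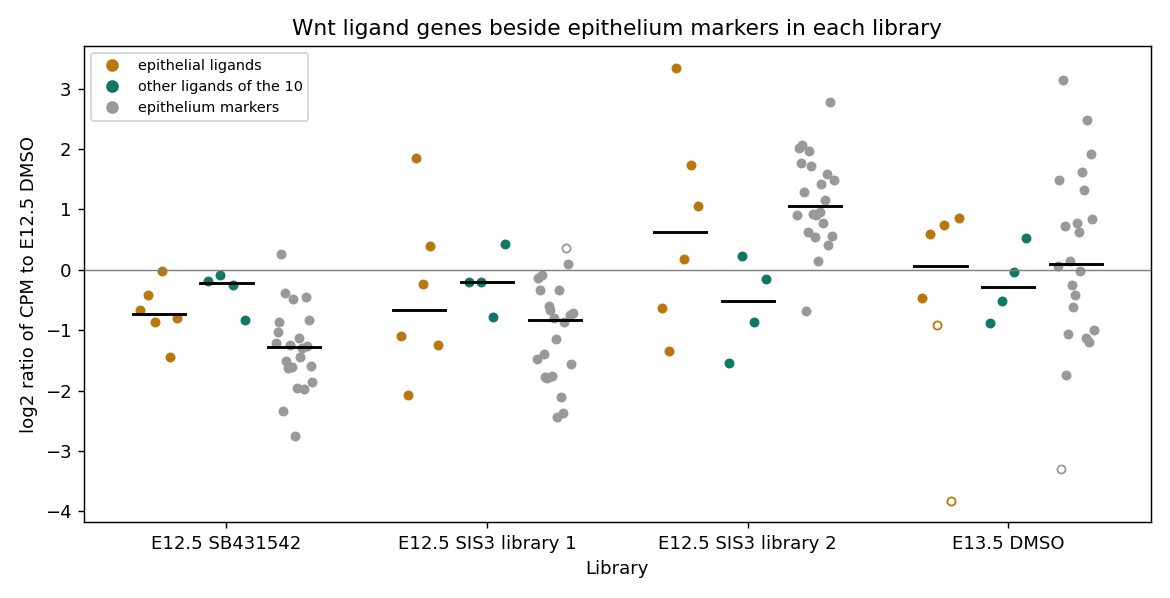
Log2 ratio of CPM to E12.5 DMSO in each of the other 4 libraries, for the 6 epithelial ligands, the 4 other ligands and the 22 epithelium markers. Points are genes, lines are medians and open points are genes at 0 counts drawn at the limit of 3 counts, whose own level is at or below the point. The marker median is -1.28 in SB431542 and 1.05 in the second SIS3 library, where the medians of the epithelial ligands are -0.73 and 0.62.

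The comparison of stages addresses how E13.5 germs differ from E12.5 germs, both in DMSO and on the same kit. Wnt6 was lower at E13.5: 0 and 0 counts in the deposited columns of E13.5 DMSO, against 37 and 38 in those of E12.5 DMSO. With E13.5 set at the floor of 3 counts this is 14.1-fold lower per library. The 95% counting interval of the CPM ratio reached up to 0.0891. For Wnt6 edgeR's quasi-likelihood F test (Benjamini-Hochberg adjusted) gave an adjusted p of 0.0296. It was the 1 ligand of 10 called, where 5.23% of all genes were called, 1.17% as lower and 4.06% as higher. The call was lost with DESeq2 (adjusted p 0.0602), without either E13.5 column (adjusted p 0.0830 and 0.0910 in edgeR) and among named protein-coding genes alone (adjusted p 0.124 in edgeR). Of 1270 genes with 50 to 100 counts in E12.5 DMSO, 95 (7.48%) were at 0 in the E13.5 library and 3 (0.236%) in the SB431542 library. The epithelium markers summed to 495 CPM at E13.5, against 337 CPM at E12.5, with 12 of 22 above E12.5 DMSO and Cldn6 at 0. The 15 dental epithelium markers summed to 67.4 CPM at E13.5, against 78.5 CPM at E12.5. Of these, 6 were at 0 at E13.5 (Shh, Fgf8, Fgf4, Fgf20, Vwde and Dkk4). Of 10 skeletal muscle markers, Myod1 and Pax7 were also at 0 at E13.5 and were called lower. The part of cell types in the Wnt6 value was not tested.

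None of the other 9 ligands passed the test at E13.5. Wnt3 had 0 counts at E13.5, against 10 at E12.5, and was not called (adjusted p 0.255 in edgeR). With E13.5 set at the floor of 3 counts, Wnt3 was 1.89-fold lower per library. The counting interval of its CPM ratio reached up to 0.789. Wnt7b (0.88, SE 0.98), Wnt4 (0.77, SE 0.47), Wnt10b (0.62, SE 0.90) and Wnt9a (0.55, SE 0.50) had log2 fold changes above 0. Wnt11 (-0.86, SE 0.67), Wnt5a (-0.49, SE 0.35, interval -1.24 to 0.27), Wnt10a (-0.44, SE 1.09) and Wnt5b (-0.01, SE 0.61) had values below 0. Thus 6 of 10 were below 0, against 50% of all genes, and the median was -0.22 in the fit and -0.25 as ratios of CPM with both genes at 0 set to the floor. At an unadjusted p under 0.05 there was 1 ligand, Wnt6, where 24.3% of all genes had one.

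Wnt proteins need Porcn and Wls for their release, and neither was called by DESeq2 or by edgeR over the 5 libraries. Porcn, the enzyme that attaches the lipid to Wnt proteins, had 1.48 CPM at E13.5, against 6.26 CPM at E12.5, with a log2 fold change of -2.04 that was not called (adjusted p 0.131 in edgeR). Wls, which carries Wnt proteins to the cell surface, had values of -0.11 in SB431542 and 0.40 in SIS3. Of the 6 genes for secretion and extracellular handling, 1 was called in SIS3: Gpc4, a glypican of the cell surface, which was lower at 45.2 and 52.1 CPM in SIS3, against 114 CPM in E12.5 DMSO (-1.30, SE 0.29, edgeR adjusted p 0.0267), where 3.82% of all genes were called. In SB431542 and at E13.5, 0 of the 6 were called by edgeR or DESeq2, where edgeR called 0% and 5.23% of all genes. At an unadjusted p under 0.05 in edgeR there were 0 and 1 of the 6, where 1.24% and 24.3% of all genes had one.

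Of 17 receptors and co-receptors 0 were called by edgeR or DESeq2 in SB431542, SIS3 or at E13.5. Of all genes, edgeR called 0%, 3.82% and 5.23% there. At an unadjusted p under 0.05 in edgeR there were 0, 1 and 1 of the 17, where 1.24%, 16.8% and 24.3% of all genes had one. Values below 0 were found for 11 of the 17 in SB431542, 7 in SIS3 and 15 at E13.5. The E13.5 median was -0.43, where 50% of all genes were below 0. Lrp6, a co-receptor for beta-catenin signalling, stood at -0.04 in SB431542 and -0.01 in SIS3, and Ror2, a receptor for Wnt5a, at 0.05 and -0.49. Of 9 R-spondins and regulators of receptor turnover, 1 was called in SIS3, where 3.82% of all genes were called. Rspo2, a secreted amplifier of Wnt signalling, was higher in SIS3 at 79.1 and 105 CPM, against 31.3 CPM in E12.5 DMSO (1.48, SE 0.35, edgeR adjusted p 0.0328). These SIS3 values share their libraries with the low endothelium, macrophage and muscle markers and the lower dental mesenchyme sum given above. In SB431542, 0 genes of these lists or of those below were called by DESeq2 or by edgeR over the 5 libraries. With the 8 columns as replicates, where 1.46% of all genes were called, Sfrp1 and Sostdc1 were.

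Antagonists were called in SIS3 and at E13.5. Sostdc1, a secreted inhibitor of Wnt and BMP signalling that limits tooth number, was lower in SIS3 at 18.5 and 16.8 CPM, against 62.1 CPM in E12.5 DMSO (-1.89, edgeR adjusted p 0.00393), and higher at E13.5 at 193 CPM, against 62.1 CPM at E12.5 (1.66, edgeR adjusted p 0.0228). In SB431542 it stood at 27.7 CPM, with a log2 fold change of -1.22 that was not called. Sfrp1, a secreted Wnt-binding protein, was lower in SIS3 at 98.2 and 105 CPM, against 225 CPM in E12.5 DMSO (-1.22, edgeR adjusted p 0.0295). These were 2 of the 12 antagonists tested in SIS3 and 1 of 12 at E13.5, where 3.82% and 5.23% of all genes were called. Sfrp2, a relative of Sfrp1, had -1.06 in SIS3 and was not called (edgeR adjusted p 0.0950), but was with no filter on low counts (edgeR adjusted p 0.00788).

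Inside the cell, 3 of 18 transducers were called in SIS3, all of them TCF factors and all lower, where 3.03% of all genes were called lower. Tcf7 stood at 3.34 and 5.52 CPM in SIS3, against 37.7 CPM in E12.5 DMSO (-3.15, edgeR adjusted p 0.00103). Tcf7l1 had -1.83 (adjusted p 0.00332) and Tcf7l2 -1.22 (adjusted p 0.0427) in the same edgeR fit. The fourth factor of that family, Lef1, had 256 and 216 CPM in SIS3, against 196 CPM in E12.5 DMSO, and was not called at 0.20. Ctnnb1, which encodes beta-catenin, stood at -0.29 in SB431542 and -0.01 in SIS3. Of 14 beta-catenin targets tested, Tcf7 was the 1 called, and the feedback target Axin2 stood at 0.18 in SB431542 and -0.33 in SIS3. The calls of Gpc4, Rspo2, Sfrp1 and Tcf7l2 in SIS3 were lost over genes averaging 5 CPM or more, with the SIS3 and E12.5 DMSO groups fitted alone, and among named protein-coding genes alone, and that of Sostdc1 at E13.5 in the first and last of these. Without either E13.5 column those of Rspo2 (edgeR adjusted p 0.0502 and 0.0535) and Tcf7l2 (0.0632 and 0.0679) were lost too, and that of Tcf7l2 without the second E12.5 DMSO column (0.0562). The calls of both were also lost with length and GC trends removed (edgeR adjusted p 0.0506 for Rspo2 and 0.0549 for Tcf7l2) and with no E13.5 library in the fit (0.0530 and 0.0707). With the 8 columns as replicates, where 38.1% of all genes were called in SIS3 and 54.9% at E13.5, Wls, Ror2 and Sfrp2 were called in SIS3 and Porcn at E13.5. The calls of Tcf7, Tcf7l1 and Sostdc1 in SIS3 were made under each alternative that tested them.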

How the data were processed

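RNA-seq had been run on cultured molar tooth germs in 4 groups with 2 deposited columns each. The authors deposited unscaled estimated counts per gene as whole numbers. Per the submitters' processing notes the tools were DESeq2, deepTools, HISAT2, Salmon and SAMtools, in roles and versions not stated there, with the build mm10. Per the labels, SIS3 libraries were made with the TruSeq kit and the others with the SMARTer kit. Salmon estimates how reads shared by transcripts divide among them, so similar genes can exchange counts.

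The 2 columns of E12.5 SB431542, E13.5 DMSO and E12.5 DMSO differed in total by 0.00212%, 0.00749% and 0.00168%. Over protein-coding genes with 1 transcript their spread, from the median squared difference, was 1.12, 1.15 and 1.08 times that of dividing 1 set of reads at random, and 8.94 times in SIS3, whose totals differed by 44.5%. For genes with 2 to 6 transcripts the ratios were 1.84, 1.48 and 1.89, against 10.2 in SIS3, and for those with 7 or more 3.10, 2.36 and 3.12, against 16.1. The first 3 pairs were each summed as 1 library. The sources used here do not say whether the SIS3 pair came from separate cultures, so p-values may measure technical spread.

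All genes kept by filterByExpr were fitted in edgeR 4.0.16 (R 4.3.3) with TMM, a robust quasi-likelihood F test, two-sided, with the group as the factor and Benjamini-Hochberg adjustment at 0.05 over 19022 genes. The fit had 1 residual degree of freedom plus a median of 12.5 borrowed across genes, with the single libraries assumed to be as variable as the SIS3 pair. Scripts were tested on simulated data. Alternatives were DESeq2 1.42.0, other scalings and filters, the 8 columns as replicates, a replicate block and leaving out columns. Counting intervals are exact 95% intervals and cover counting error only, since the protocols name no molecular identifiers. Coordinates and lengths are from GENCODE vM21, which holds 98.9% of the gene IDs, and promoters from RefSeq. All members are named, and of the other pathway genes each one called plus Porcn, Wls, Axin2, Lef1, Ctnnb1, Lrp6, Ror2 and Sfrp2. The members, the gene lists and the layer given to each ligand were chosen with earlier results of these data known.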

Additional observations from a re-analysis of the deposited data

How the results depend on the processing

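The spread rests on 1 pair of libraries, with a common biological coefficient of variation of 29.3%. The median reach of a log2 fold change's 95% confidence interval to either side was 1.22 in SB431542, 1.05 in SIS3 and 1.26 at E13.5. Of 417 tested values of the 10 ligands under the alternatives, 389 kept their direction and their side of the threshold, 4 lost a call, 10 gained one and 14 changed sign. The 20 values without 1 SIS3 library have no test, and 4 changed sign (Wnt4, Wnt5a, Wnt7b and Wnt9a).

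With 8 columns as replicates SIS3 had 1 ligand called higher (Wnt3) and 2 lower (Wnt5b and Wnt10b), and E13.5 had 2 higher (Wnt4 and Wnt9a) and 2 lower (Wnt5a and Wnt6). With the replicate number as a replicate block, SIS3 had 2 lower and E13.5 had 1 higher and 2 lower. Of all genes these 2 fits called 38.1% and 34.9% in SIS3 and 54.9% and 52.2% at E13.5. The numbers do not pair the samples: deviations of same-numbered columns correlated at -0.02 to 0.00 between groups, and the 8 columns include the 3 pairs that were counted as 1 library each. At E13.5 the count lower was 0 over genes averaging 5 CPM or more, where 6 of the 10 ligands and not Wnt6 were tested, 0 with DESeq2, 0 among named protein-coding genes alone and 0 to 1 when leaving out 1 column. Wnt6 kept its call with DESeq2 size factors, with no filter and without 1 E12.5 DMSO or SB431542 column. In SIS3, Wnt7b stood at 0.96 and -1.28 without the first and the second SIS3 library. The SIS3 fit without the E13.5 library and the fits on named protein-coding genes alone were chosen after seeing the data. Beyond the fewer genes or samples fitted, the cause was not tested.

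No value that changed sign was called. In SB431542, leaving out 1 column gave Wnt4 -0.16 to 0.011 and Lrp6 -0.11 to 0.036. In SIS3, Wnt4 was 0.058 with length and GC trends removed, and Wnt5a was 0.0050 among named protein-coding genes alone and -0.25 to 0.14 when leaving out 1 column. In SIS3, Ctnnb1 was 0.034 with DESeq2 size factors and with DESeq2, 0.0052 with 8 columns, 0.0044 with the block, 0.0041 with 2 groups alone, 0.030 with trends removed, 0.00071 without the E13.5 library, 0.040 among named protein-coding genes and -0.086 to 0.066 when leaving out 1 column. In SIS3, Lrp6 was 0.031 with DESeq2 size factors and with DESeq2, 0.00049 with 8 columns, 2.3e-05 with the block, 0.035 among named protein-coding genes and -0.11 to 0.084 when leaving out 1 column. At E13.5, Wnt5b was 0.038 with DESeq2 size factors and with DESeq2, 0.082 over genes averaging 5 CPM or more, 0.010 with 8 columns, 0.0095 with the block, 0.059 among named protein-coding genes and -0.018 to 0.022 when leaving out 1 column. At E13.5, Wnt10a was -1.17 to 0.062 when leaving out 1 column.

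Over all genes, the counts higher and lower in SB431542 were 95 and 164 with 8 columns, 19 and 64 with the block and 8 and 19 with no filter. In SIS3, against 151 higher and 576 lower, they were 3157 and 3607 with 8 columns, 2848 and 3346 with the block, 335 and 1079 with no filter, 24 and 106 over genes averaging 5 CPM or more, 63 and 169 with 2 groups alone, and 65 and 267 among named protein-coding genes. At E13.5, against 772 higher and 223 lower, they were 5257 and 4485 with 8 columns, 5006 and 4254 with the block, 1458 and 604 with no filter, 158 and 34 over genes averaging 5 CPM or more, 439 and 135 with DESeq2, 334 and 85 and then 327 and 72 without either E13.5 column, and 38 and 15 among named protein-coding genes. Further, SIS3 had 230 higher with DESeq2, 358 lower without the E13.5 library and 98 higher without the second E13.5 column, E13.5 had 502 higher without the second E12.5 DMSO column, and SB431542 had 4 lower with DESeq2 and 1 lower without its first column.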

Other observations

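Of the other 9 Wnt ligand genes of the table, 4 (Wnt2, Wnt2b, Wnt9b and Wnt16) passed the filter on low counts, and the other 5 had 0 to 4 counts in every library. None of the 9 was called by edgeR or DESeq2 in any comparison. In SIS3, 2 were at an unadjusted p under 0.05 in edgeR, where 16.8% of all genes were. The values that follow were picked after they were seen. Wnt16 had 16.3 CPM in E13.5 DMSO, against 9.07 CPM in E12.5 DMSO. Wnt9b, an epithelial ligand known from kidney and facial development, had 2 counts in SB431542, 1 and 68 counts in the SIS3 libraries, 0 counts in E13.5 DMSO and 14 counts in E12.5 DMSO. It lies next to Wnt3, 24328 bp away on the opposite strand of chromosome 11, and like Wnt3 and Wnt6 it was at 0 at E13.5 and highest in the second SIS3 library. Wnt2, known from lung and heart mesenchyme and from endothelium, had 1.00 and 0.636 CPM in SIS3, against 5.81 CPM in E12.5 DMSO (log2 fold change -2.92, SE 0.80, edgeR adjusted p 0.0633), in the libraries where endothelium markers were low. Wnt2b had 11.5 CPM in E13.5 DMSO, against 4.16 CPM in E12.5 DMSO (1.49, SE 0.80, edgeR adjusted p 0.278). In the second SIS3 library Wnt16 had 32 counts and in the first 93, a CPM ratio of 0.219 with a 95% counting interval of 0.142 to 0.330.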
